A study of Ovis aries with 2 samples.

Results

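The 10 antigen presentation genes CD74, CIITA, CTSS, B2M, TAP1, TAP2, TAPBP, PSMB8, PSMB9 and NLRC5 were followed through single-cell libraries of the sheep anterior pituitary. They were taken by gene symbol from the deposited feature lists, and all 10 were found among the 23141 listed genes. Of these, 7 belong to the class I arm and 3 to the class II arm. The libraries held dissociated cells of the anterior lobe of Hu sheep aged 6 months and 3 months, with 1 library per age. Neither the labels nor the files tell how many animals went into a library or their sex. All values are unique molecular identifiers (UMIs), each of which stands for 1 captured transcript. Levels are UMIs summed over the cells of a class and scaled to a common total (the field's CPM unit), and ratios, on the log2 scale, set the 6-month value over the 3-month value.

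Class I molecules present peptides from inside the cell to CD8 T cells and are carried by nearly all nucleated cells. The proteasome cuts the peptides, the TAP transporter moves them into the endoplasmic reticulum, tapasin helps to load them, and B2M is the light chain of the finished complex. Class II molecules present ingested material to CD4 T cells and are mostly found on professional presenting cells, namely dendritic cells, macrophages and B cells. CD74, the invariant chain, guards the class II groove, and cathepsin S, the product of CTSS, trims this chain. CIITA and NLRC5 are the transactivators of the class II and class I genes, and interferon gamma can induce both arms in endothelium and epithelium.

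After filtering, 12683 cells of the 6-month library and 15446 cells of the 3-month library remained, with medians of 9156 and 5022.5 UMIs per cell. The libraries shared 56 cell barcodes among these cells. Cells were clustered without the 10 genes and without other annotated presentation genes, and clusters were named from marker genes as resembling a cell class. Because each age had 1 library, no test was possible, and age cannot be told apart from library. Intervals are exact 95% intervals that cover counting error only. The share of UMIs attributable to free RNA, estimated from hormone genes, was 37.6% in macrophage-like, 13.8% in endothelial-like and 11.9% in stem or folliculostellate-like cells of the 6-month library, against 13.7%, 10.5% and 5.92% in the 3-month library. The macrophage-like cells include cluster 22, with 176 cells at 6 months that also carried lactotroph markers. Hormone UMIs of that cluster are counted as free RNA in the 37.6%.

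Across 7 classes with at least 50 cells in each library, 57 of 70 pairs of a gene and a class reached 100 summed UMIs. Of those, 18 were at least 2-fold higher in the 6-month library, 0 were at least 2-fold lower, and 39 differed by less. The higher pairs comprised 7 of 9 measured genes in stem or folliculostellate-like cells, where 4.57% of all measured genes were that much higher, and 3 of 9 in endothelial-like cells, with a background of 3.00%. They also comprised 4 of 8 in T or NK-like cells (background 13.7%), 2 of 8 in lactotroph-like cells (2.43%), 1 of 10 in macrophage-like cells (6.58%), 1 of 7 in gonadotroph-like cells (1.36%) and 0 of 6 in somatotroph-like cells (0.594%). The background for genes at least 2-fold lower was 4.87% in macrophage-like, 1.73% in T or NK-like, 3.18% in endothelial-like, 2.28% in stem or folliculostellate-like, 4.02% in lactotroph-like, 1.91% in somatotroph-like and 3.07% in gonadotroph-like cells. The median log2 ratio of the measured members was 1.65 in stem or folliculostellate-like, 0.98 in T or NK-like, 0.70 in endothelial-like, 0.50 in lactotroph-like, 0.47 in macrophage-like, 0.31 in gonadotroph-like and 0.00057 in somatotroph-like cells. The median over all measured genes was 0.30 in T or NK-like cells and between -0.06 and 0.05 in the other classes.

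**Figure D1:**
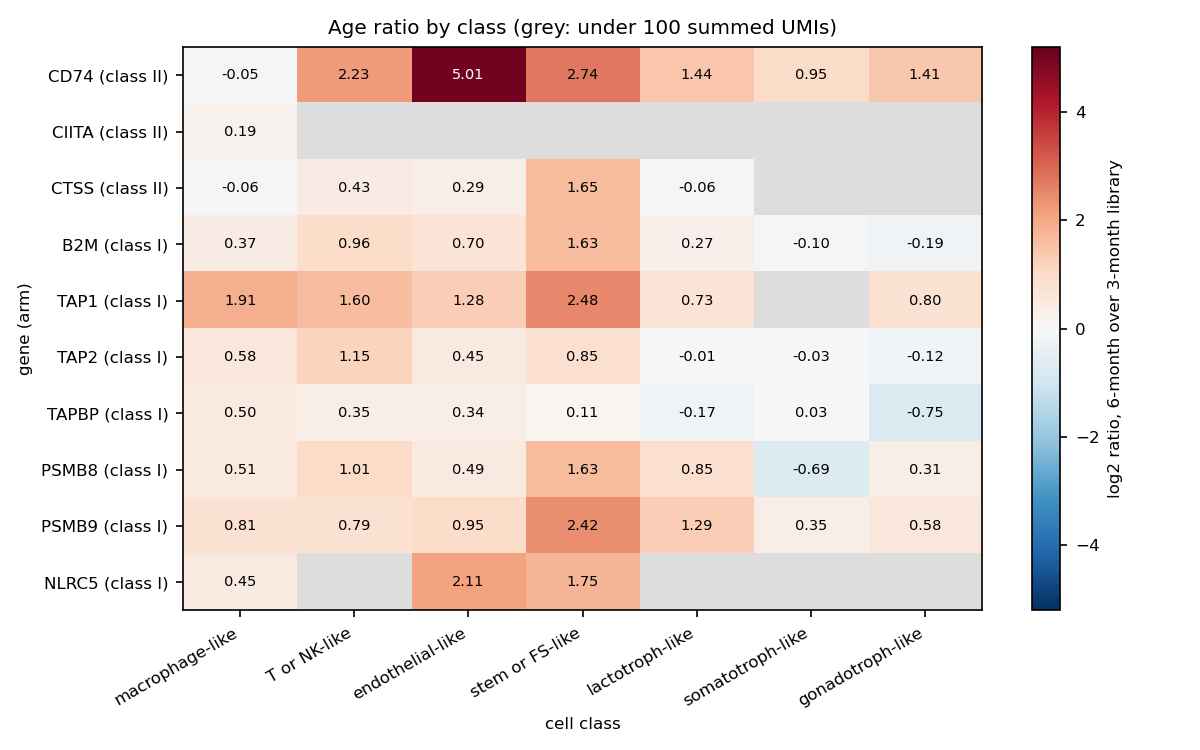
Log2 ratio of the 6-month over the 3-month library for each of the 10 genes (rows) in 7 cell classes (columns), where FS stands for folliculostellate and grey marks pairs under 100 summed UMIs. The deepest red is CD74 in endothelial-like cells at 5.01, stem or folliculostellate-like cells have the most red squares with 7 genes at least 2-fold higher, and no square reaches a 2-fold lower value.

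In macrophage-like cells the class II arm was high in both libraries and differed little between them, and CD74 and CIITA did so in dendritic-like cells too. CD74 had 6703 CPM in 1560 macrophage-like cells of the 6-month library, against 6933 CPM in 1353 such cells of the 3-month library. The log2 ratio was -0.05, and the values of both libraries lay close together. CIITA, the transactivator, had 60.1 CPM at 6 months, against 52.7 CPM at 3 months in macrophage-like cells (log2 0.19, interval -0.01 to 0.39). CTSS, whose product trims the invariant chain, had 1410.2 CPM at 6 months, against 1468 CPM at 3 months there (log2 -0.06). With cells thinned to 2000 UMIs each, 94.0% of macrophage-like cells at 6 months and 99.3% at 3 months had a CD74 UMI.

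The macrophage-like class was made up of different clusters in each library: cluster 9 held 1033 of the 6-month cells and cluster 10 held 1059 of the 3-month cells. Within cluster 9, CD74 had 10011 CPM at 6 months, against 12197 CPM in 66 cells at 3 months (log2 -0.28). Cluster 26, with 102 cells at 6 months and 71 at 3 months, went the other way, with 13299 CPM at 6 months, against 10403 CPM at 3 months (log2 0.35, 0.26 to 0.45). A further cluster, number 22, with 176 cells at 6 months and 12 at 3 months, also carried lactotroph markers and had 2528 CPM of CD74 at 6 months. Without that cluster the CD74 log2 ratio in macrophage-like cells was 0.28, and with free RNA subtracted it was 0.37, so the sign of the small difference depended on these settings.

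Dendritic-like cells had the highest CD74 level among named classes in both libraries, 13666.5 CPM in 163 cells at 6 months, against 13035 CPM in 18 cells at 3 months. All of the thinned dendritic-like cells had a CD74 UMI, 131 of 131 at 6 months and 12 of 12 at 3 months. CIITA was also highest there, with 109 CPM at 6 months, against 97.9 CPM at 3 months. A separate gate on CLEC9A and XCR1, receptors of cross-presenting dendritic cells, took 73 cells at 6 months and 4 at 3 months and gave 11326 and 14144 CPM of CD74. B or plasma-like cells were lower, with 1048 CPM of CD74 in 83 cells at 6 months, against 904 CPM in 13 cells at 3 months. These B or plasma-like cells had an estimated 36.9% of free RNA at 6 months, and their 13 cells at 3 months were too few to count among the 7 compared classes. CTSS had 189 CPM (270 UMIs) in them at 6 months, against 37.4 CPM (6 UMIs) at 3 months, and CIITA had 8 UMIs at 6 months and 0 at 3 months.

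**Figure D2:**
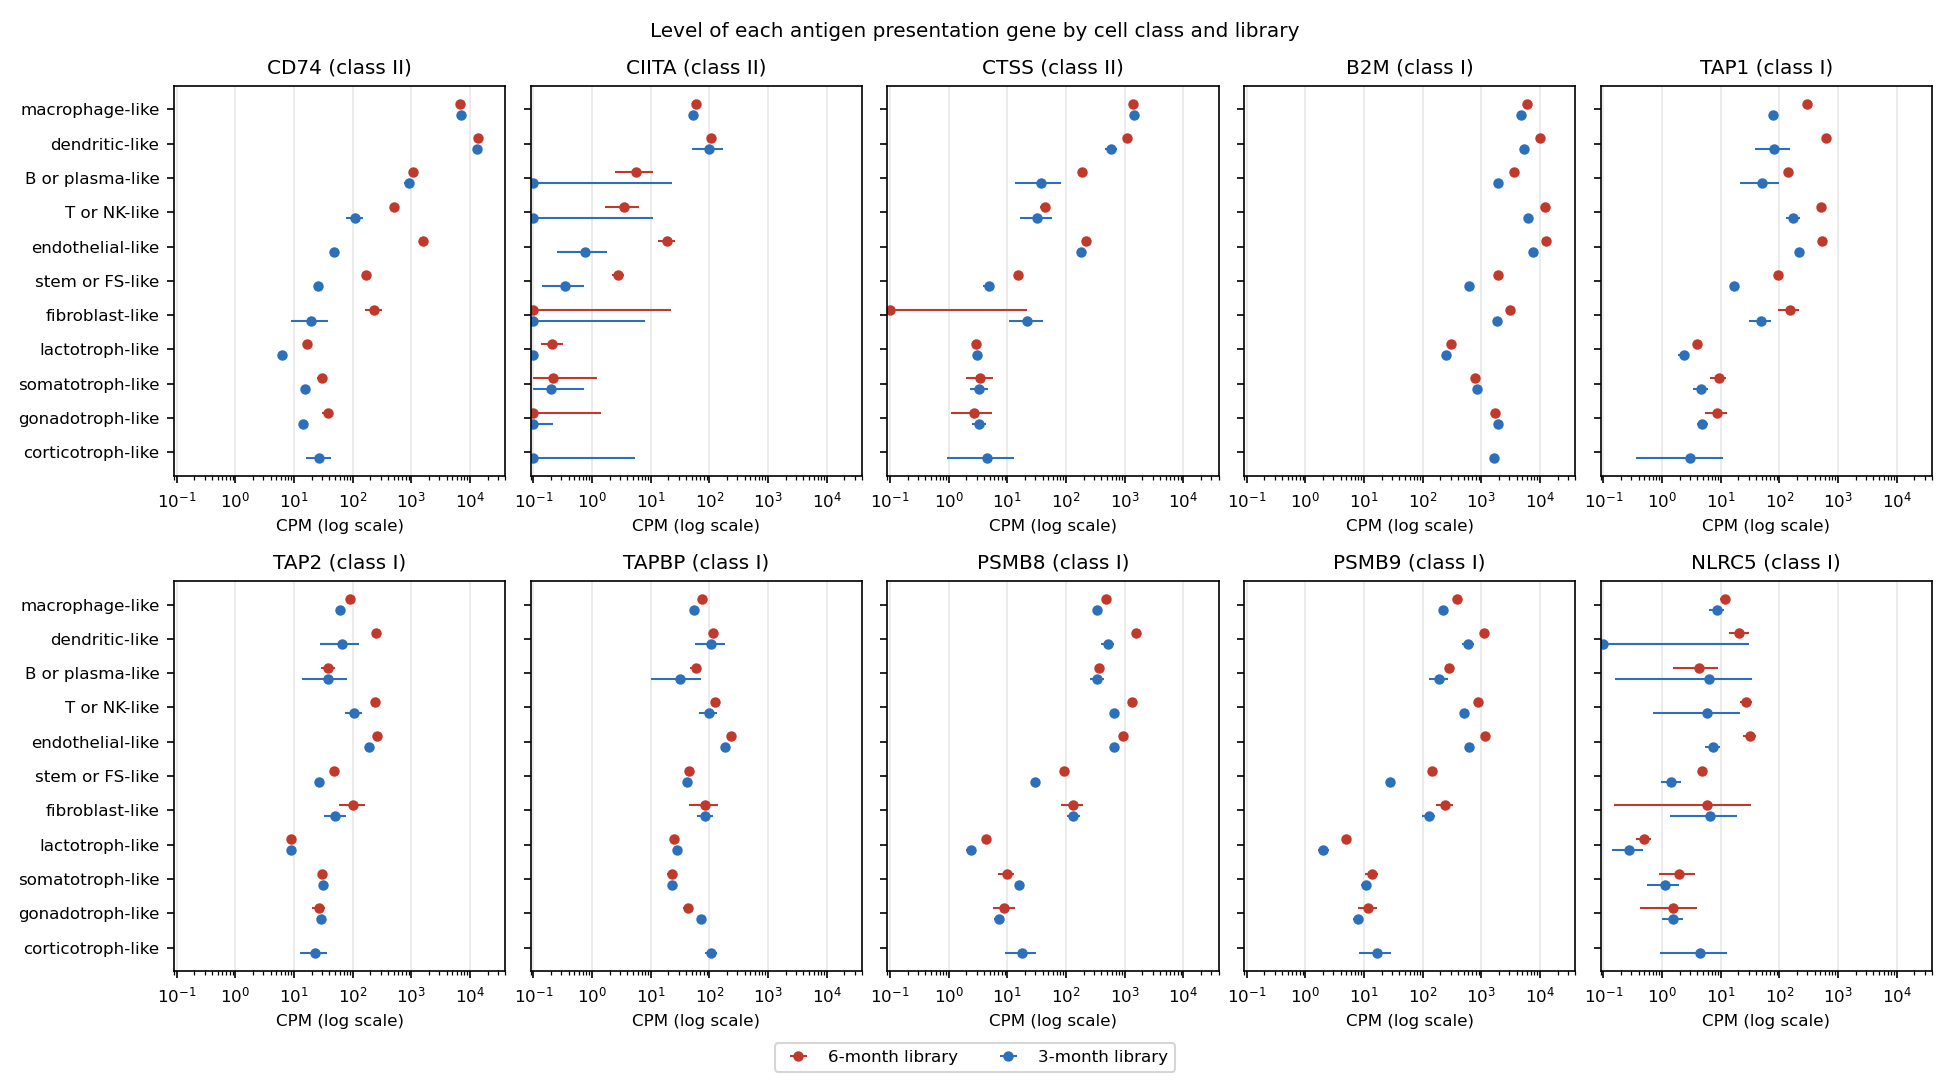
Level of each of the 10 genes in CPM (log axis) in each cell class, with the 6-month library in red above the 3-month library in blue and bars for exact 95% Poisson intervals; FS stands for folliculostellate, values under 0.1 are drawn at 0.1, and classes with under 10 cells are left out. CD74 lies at 6703 and 6933 CPM in macrophage-like cells, while in endothelial-like cells its points lie far apart at 1570 and 48.7 CPM.

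Endothelial cells line the vessels and meet circulating T cells. Their class II arm showed the largest ratio between libraries of the 57 measured pairs. CD74 had 1570 CPM (interval 1515 to 1627, 3063 UMIs) in 436 endothelial-like cells at 6 months, against 48.7 CPM (43.4 to 54.4, 315 UMIs) in 1876 such cells at 3 months. That is a log2 ratio of 5.01 (4.84 to 5.18), or 32.3-fold. CIITA had 37 UMIs (19.0 CPM) at 6 months and 5 UMIs (0.773 CPM) at 3 months, a log2 ratio of 4.62 with an interval of 3.27 to 6.32. It had under 100 summed UMIs and is not among the 57 pairs. CTSS had 223 CPM at 6 months, against 183 CPM at 3 months and stayed under 2-fold (log2 0.29).

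The class II molecules followed CD74 in this class. The gene listed as LOC101109747, for which the reference gives the synonym DRA, encodes a class II alpha chain and had 1039 CPM at 6 months, against 30.4 CPM at 3 months (log2 5.09). DQA, another class II alpha chain, had 241 CPM at 6 months, against 18.5 CPM at 3 months (log2 3.70). OVAR-DRB1, a class II beta chain, had 49 UMIs at 6 months and 4 UMIs at 3 months. All of these class II genes were thus higher in the 6-month endothelial-like cells, as CD74 and CIITA were.

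The difference was concentrated in a minority of the endothelial-like cells. Cluster 28, led by IL32, held 152 cells at 6 months and 3 at 3 months, while cluster 24 held 178 and 2, and cluster 4 held 106 and 1871. On UMI totals, CD74 had 3235 CPM in cluster 28, 69.5 CPM in cluster 24 and 268 CPM in cluster 4 at 6 months, against 49.5 CPM in cluster 4 at 3 months. CIITA had 36 UMIs (40.1 CPM) in cluster 28, 0 UMIs in cluster 24 and 1 UMI in cluster 4 at 6 months, so nearly all of its endothelial UMIs came from cluster 28. Thinned to 2000 UMIs, 75.0% (67.1 to 81.8) of cluster 28 cells had a CD74 UMI and 48.6% had at least 5. The share with a CD74 UMI was 7.69% (3.90 to 13.3) in cluster 24 and 21.4% (12.5 to 32.9) in cluster 4 at 6 months, against 5.75% (4.58 to 7.12) in cluster 4 at 3 months. In lactotroph-like cells, which should lack the gene, it was 3.65% at 6 months and 1.05% at 3 months, with median depths of 16559 and 18114 UMIs, against 3302.5 and 2750.5 UMIs in endothelial-like cells. Before thinning, 40.8% of endothelial-like cells at 6 months and 8.10% at 3 months had a CD74 UMI.

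The class I arm of endothelial-like cells was high in both libraries, and its differences rested on the same cluster. TAP1, a transporter subunit, had 527 CPM at 6 months, against 217 CPM at 3 months (log2 1.28, 1.17 to 1.40). NLRC5 had 61 UMIs (31.3 CPM) at 6 months and 47 UMIs (7.26 CPM) at 3 months (log2 2.11, 1.53 to 2.69). B2M, PSMB9 and PSMB8 stayed under 2-fold, with log2 ratios of 0.70, 0.95 and 0.49. Within the 6-month library, cluster 28 had 880 CPM of TAP1, 1922 CPM of PSMB9 and 60.2 CPM of NLRC5, against 208, 537 and 1.54 CPM in cluster 24. Without cluster 28 the endothelial-like log2 ratio of CD74 was 1.56, that of B2M 0.15 and that of PSMB9 -0.24, and TAP1 no longer passed 2-fold. Within cluster 4, which both libraries filled with at least 100 cells, CD74 had a log2 ratio of 2.43 (2.12 to 2.75), TAP1 of 0.16 (-0.14 to 0.45) and PSMB9 of -0.27 (-0.48 to -0.08).

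Immune RNA in these cells was measured beside the result. C1QB, a complement gene of macrophages, had 37.9 CPM in cluster 28, 23.2 CPM in cluster 24 and 32.3 CPM in cluster 4 at 6 months, against 35.0 CPM in cluster 4 at 3 months. PTPRC, the pan-leukocyte CD45 gene, had 24 UMIs in cluster 28 and 0 in cluster 24. Leaving out every cell of the non-immune classes with at least 2 UMIs of 7 immune genes kept the endothelial-like CD74 log2 ratio at 4.83. All 3 endothelial-like clusters were supported by at least 10 endothelial markers, among them PECAM1, VWF and CDH5. Most leading genes of cluster 28 carry placeholder symbols only, and loci with such symbols were not removed before clustering. The leading genes of this cluster with full symbols were IL32 and the chemokine gene CXCL9.

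**Figure D3:**
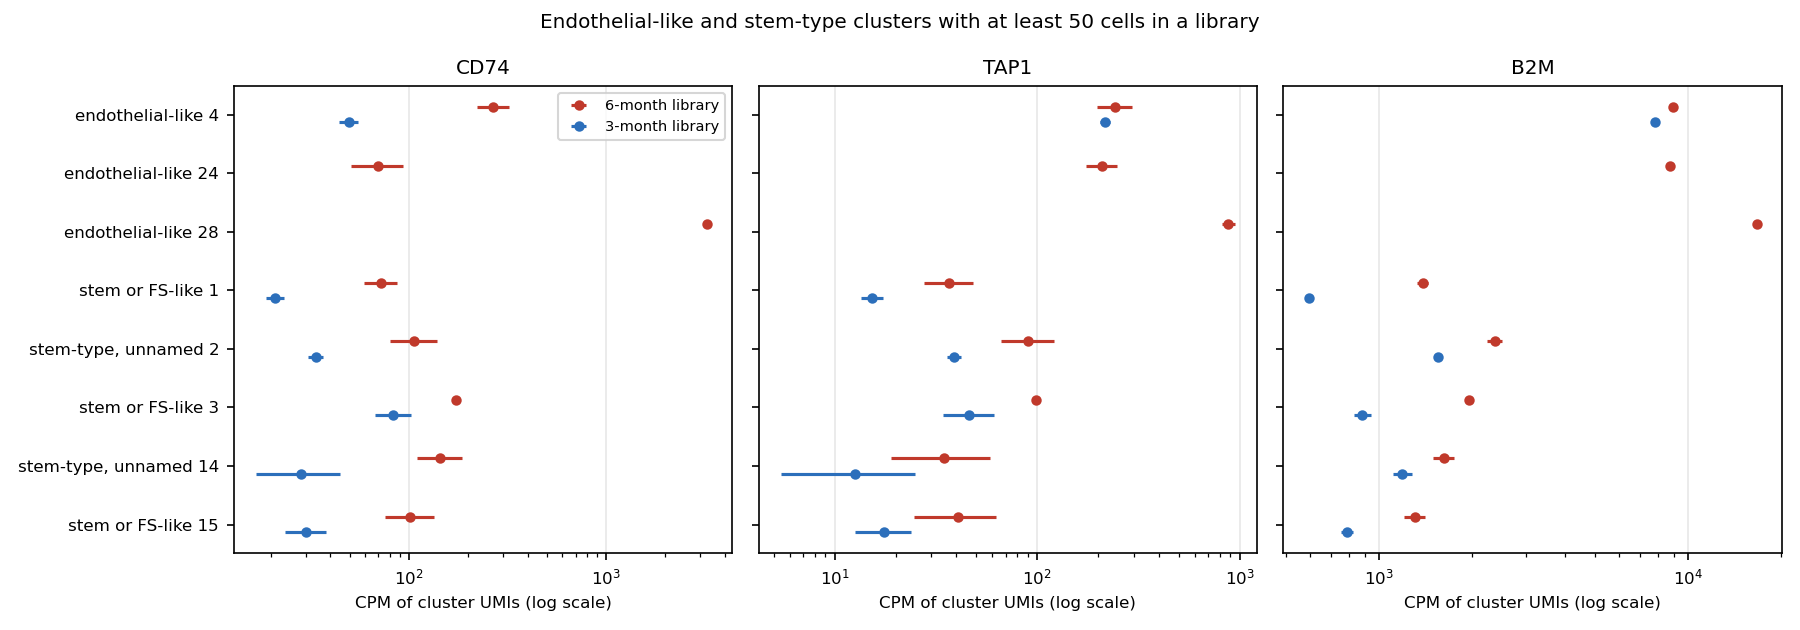
CPM on UMI totals (log axes) of CD74, TAP1 and B2M in endothelial-like and stem-type clusters with at least 50 cells in a library, with the 6-month library in red above the 3-month library in blue and bars for exact 95% Poisson intervals; FS stands for folliculostellate. Endothelial-like cluster 28 stands apart with 3235 CPM of CD74, and in the stem-type clusters the 6-month points of CD74 lie to the right of the 3-month points.

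Stem or folliculostellate-like cells are the SOX2-positive, epithelial-type cells of the lobe that make no hormone. In them 2 class II genes and 5 class I genes were at least 2-fold higher in the 6-month library. CD74 had 168 CPM in 2404 cells at 6 months, against 25.2 CPM in 3405 cells at 3 months (log2 2.74, 2.61 to 2.88). CTSS had 15.1 CPM at 6 months, against 4.83 CPM at 3 months (log2 1.65), and CIITA had 74 UMIs at 6 months and 7 UMIs at 3 months (log2 3.02, 1.91 to 4.38). After thinning, 15.6% (14.2 to 17.2) of these cells at 6 months and 4.38% (3.67 to 5.19) at 3 months had a CD74 UMI, but 0.691% and 0.103% had at least 5. Unlike in endothelial-like cells, few cells thus held much of the message. Before thinning the shares were 34.0% at 6 months and 8.52% at 3 months.

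Most class I genes of these cells were also higher at 6 months. TAP1 had 94.9 CPM at 6 months, against 17.0 CPM at 3 months (log2 2.48, 2.32 to 2.65). PSMB9, an inducible subunit of the proteasome, had 146 CPM at 6 months, against 27.3 CPM at 3 months (log2 2.42). PSMB8, its partner subunit, had 92.8 CPM at 6 months, against 29.9 CPM at 3 months (log2 1.63). B2M had 1940.0 CPM at 6 months, against 625 CPM at 3 months (log2 1.63), and NLRC5 had 127 UMIs at 6 months and 29 UMIs at 3 months (log2 1.75). Joining unnamed clusters to their nearest class brought B2M to 0.87, PSMB8 to 0.90, NLRC5 to 0.60 and CTSS to 0.97, all under 2-fold, and the looser cell filter brought PSMB8 to 0.95 and CD74 to 1.37. At the lower Leiden resolution NLRC5 had 0.63. The remaining pair, TAP2 at 0.85 and TAPBP, the gene for tapasin, at 0.11, stayed under 2-fold.

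CD74, TAP1, B2M and PSMB9 were higher at 6 months within each named stem-type cluster, with smaller ratios than in the class. Cluster 1 held 327 cells at 6 months and 2942 at 3 months, and cluster 3 held 2002 and 124, so each library filled a different cluster, and cluster 15 held 75 and 339. CD74 had 72.2 CPM at 6 months, against 21.0 CPM at 3 months in cluster 1 (log2 1.78), and 173 CPM at 6 months, against 83.5 CPM at 3 months in cluster 3 (log2 1.05). TAP1 had log2 ratios of 1.27 in cluster 1, 1.08 in cluster 3 and 1.21 in cluster 15, and B2M of 1.22, 1.15 and 0.73. PSMB9 had 1.76 in cluster 1, 1.15 in cluster 3 and 0.31 in cluster 15, where the interval of -0.36 to 0.93 spans no difference. PSMB8 had 1.44 in cluster 1, 0.77 in cluster 3 and 0.51 in cluster 15, the last with an interval that spans 0 (-0.17 to 1.14). CTSS had 0.78, 0.48 and 1.06 in clusters 1, 3 and 15, and NLRC5 had 0.82, 0.85 and -0.53, all 6 values with intervals that span 0 and at most 12 UMIs in one of the libraries. Cluster 2, with 87 cells at 6 months and 2153 at 3 months, was nearest to stem cells but stayed unnamed, and there CD74 had 107 CPM at 6 months, against 33.6 CPM at 3 months (log2 1.66).

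To read the low CD74 levels, each class was set against a ruler of 7 macrophage genes, namely C1QA, C1QB, C1QC, TYROBP, FCER1G, CSF1R and AIF1. The ruler gives the CD74 level that macrophage-like RNA alone would bring if it carried these genes in its own proportions. CD74 in endothelial-like cells was 34.7 times that level at 6 months and 1.21 times at 3 months. In stem or folliculostellate-like cells it was 5.39 times the level at 6 months and 1.17 times at 3 months. Lactotroph-like cells stood at 1.31 and 0.895 times, somatotroph-like cells at 1.08 and 0.922 times, and gonadotroph-like cells at 2.17 and 1.44 times, at 6 and 3 months in each case. At 3 months, CD74 in each of these classes thus lay near what macrophage-like RNA would bring. At 6 months endothelial-like and stem or folliculostellate-like cells lay above it.

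A second estimate used free RNA with the make-up of all kept cells of a library. CD74 was 17.1 times the free-RNA level in endothelial-like cells at 6 months and 1.29 times at 3 months. It was 2.14 times at 6 months and 1.18 times at 3 months in stem or folliculostellate-like cells, and 0.829 and 0.468 times in lactotroph-like cells. LOC101109747 (DRA) in stem or folliculostellate-like cells was 1.23 times the free-RNA level in each library. DQA in the same cells was 0.817 times that level at 6 months and 0.750 times at 3 months. For both of these class II genes a level above free RNA was thus not shown by this estimate. CTSS in these cells was 1.04 times the free-RNA level at 6 months and 0.975 times at 3 months, so its level was near free RNA in both libraries. The macrophage ruler gave other values at 6 months. Against it LOC101109747 stood at 2.97 times at 6 months and 1.21 times at 3 months. DQA stood at 1.82 and 0.728 times and CTSS at 2.30 and 1.06 times, so the estimates differ for these genes at 6 months. TAP1 in the same cells was 12.5 times the free-RNA level at 6 months and 11.4 times at 3 months.

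**Figure D4:**
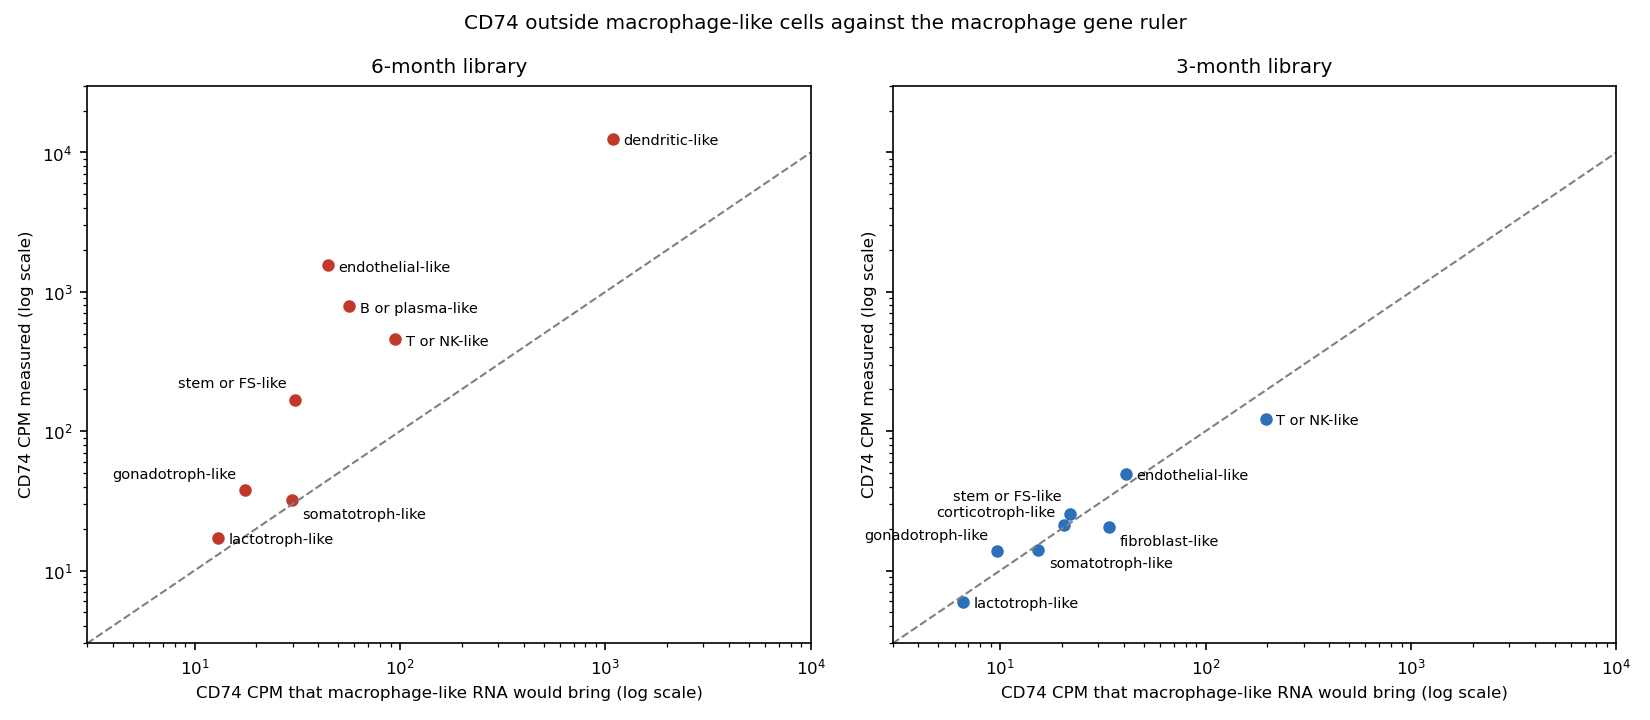
Measured CD74 level on UMI totals (vertical log axis, CPM) against the level that macrophage-like RNA would bring (horizontal log axis, CPM) for classes with at least 50 cells, the 6-month library on the left and the 3-month library on the right, with a dashed line at equality; FS stands for folliculostellate. At 3 months all classes shown lie near the line, from 0.602 to 1.44 times, and at 6 months endothelial-like cells lie 34.7 times above it. NK cells carry some of the ruler genes themselves.

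The T or NK-like class joins T cells, which recognise the presented peptides, with NK cells. It carried class I members in both libraries, while CIITA, of the class II arm, had 10 UMIs at 6 months and 0 at 3 months. CD74 had 511 CPM in 980 cells at 6 months, against 109 CPM (37 UMIs) in 106 cells at 3 months (log2 2.23, 1.76 to 2.74). TAP1 had 520 CPM at 6 months, against 171 CPM at 3 months (log2 1.60), TAP2 had 236 and 106 CPM (log2 1.15), and PSMB8 had 1317 and 655 CPM (log2 1.01). PSMB9 had 871 CPM at 6 months, against 505 CPM at 3 months (log2 0.79), and CTSS and TAPBP had log2 ratios of 0.43 and 0.35 with intervals that span 0. B2M had 12257 CPM at 6 months, against 6322 CPM at 3 months, and together with endothelial-like cells these were the classes with the highest B2M level at 6 months. CD74 in T or NK-like cells was 4.81 times the macrophage ruler at 6 months and 0.625 times at 3 months, where NK cells carry the ruler genes TYROBP and FCER1G themselves. Against the free-RNA level it was 7.24 times at 6 months and 5.54 times at 3 months. Scaled to UMI totals alone, without the TMM composition factors, TAP2 had a log2 ratio of 0.82 and PSMB8 of 0.68 here. IFNG, the gene for interferon gamma, had 101 CPM at 6 months, against 56.1 CPM at 3 months (291 and 19 UMIs).

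Lactotroph-like, somatotroph-like and gonadotroph-like cells carried less CD74, TAP1, PSMB8 and PSMB9 than each of the other 4 classes compared, in either library. For B2M this held at 6 months but not at 3 months, when stem or folliculostellate-like cells had less than somatotroph-like and gonadotroph-like cells. B2M had 305 CPM at 6 months, against 252 CPM at 3 months in lactotroph-like cells, 782 and 836 CPM in somatotroph-like cells, and 1690.0 and 1928 CPM in gonadotroph-like cells. In each of these classes it differed by less than 2-fold. CD74 had 16.6 CPM at 6 months, against 6.14 CPM at 3 months in lactotroph-like cells (log2 1.44), and 37.5 and 14.1 CPM in gonadotroph-like cells (log2 1.41), at 0.829 and 0.468 times the free-RNA level in lactotroph-like cells and at 1.09 and 0.787 times in gonadotroph-like cells. PSMB9 had 4.98 CPM at 6 months, against 2.04 CPM at 3 months in lactotroph-like cells (log2 1.29), at 1.57 and 0.871 times the free-RNA level, and had 0.65 with the mean over cells and 0.52 in clusters with at least 50 cells in each library. CIITA had 22 UMIs in lactotroph-like cells at 6 months and 0 at 3 months, and the 6-month level was 1.18 times that of free RNA. Corticotroph-like cells numbered 7 at 6 months and 215 at 3 months and were not compared.

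Macrophage-like cells differed in a single member, TAP1, which had 293 CPM at 6 months, against 78.1 CPM at 3 months (log2 1.91, 1.76 to 2.05). The other class I members were higher by less than 2-fold, from B2M at 0.37 to PSMB9 at 0.81. TAP1 was higher within cluster 9 (log2 1.07, 0.56 to 1.63) and within cluster 26 (log2 1.44, 0.41 to 2.60) as well. PSMB9 had log2 ratios of 0.07 and 0.05 in those clusters, both with intervals that span 0. In dendritic-like cells TAP1 had 626 CPM (813 UMIs) at 6 months and 81.6 CPM (10 UMIs) at 3 months, with only 18 cells behind the 3-month value.

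TAP2, the partner of TAP1 in the transporter, and TAPBP varied less between libraries than 2-fold in every class compared except T or NK-like cells for TAP2. TAP2 had 257 CPM in endothelial-like cells at 6 months, against 188 CPM at 3 months, and 47.3 CPM in stem or folliculostellate-like cells, against 26.2 CPM. In somatotroph-like cells PSMB9 had 13.8 CPM at 6 months, against 10.8 CPM at 3 months, and PSMB8 had 9.69 CPM, against 15.6 CPM. In the same cells TAP2 had 30.4 CPM at 6 months, against 31.1 CPM at 3 months. TAPBP had 235 CPM in endothelial-like cells at 6 months, against 185 CPM at 3 months, and 24.9 CPM in lactotroph-like cells, against 28.0 CPM. Its lowest log2 ratio was in gonadotroph-like cells, -0.75 (-1.04 to -0.47), where it had 42.9 CPM at 6 months, against 72.2 CPM at 3 months.

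CTSS was high in dendritic-like and macrophage-like cells and low in hormone-producing cells of both libraries. It had 1101 CPM in dendritic-like cells at 6 months, against 588 CPM at 3 months. Lactotroph-like cells had 2.93 CPM at 6 months, against 3.05 CPM at 3 months, a log2 ratio of -0.06 where that of CD74 was 1.44. Thinned to 2000 UMIs, 52.1% of endothelial-like cells at 6 months and 35.8% at 3 months had a TAP1 UMI, and 13.1% of stem or folliculostellate-like cells at 6 months and 3.15% at 3 months had one. B2M was found in 90.5% of stem or folliculostellate-like cells at 6 months and in 65.6% at 3 months, and in 100% and 99.9% of endothelial-like cells.

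PSMB8 and PSMB9 replace the constitutive proteasome subunits PSMB5 and PSMB6 in the immunoproteasome, so their share of the UMIs of each pair was also taken. This share concerns transcripts and can be compared between classes, not between pairs. In stem or folliculostellate-like cells PSMB9 made up 50.2% (49.0 to 51.3) of PSMB9 and PSMB6 UMIs at 6 months, against 12.3% (11.3 to 13.3) at 3 months. PSMB8 made up 44.9% of its pair at 6 months and 20.7% at 3 months there. Endothelial-like cells were at 89.7% and 82.7% for PSMB9, and macrophage-like cells at 80.7% and 73.5%. Lactotroph-like cells were at 4.49% at 6 months and 1.47% at 3 months. For PSMB9 and PSMB8 the stem or folliculostellate-like class thus lay between the immune and endothelial classes and the hormone-producing classes in both libraries. Somatotroph-like cells were nearest below it for PSMB9, at 11.9% at 6 months and 7.71% at 3 months among the 7 classes compared.

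Within clusters the PSMB9 share was 32.6% at 6 months and 10.3% at 3 months in cluster 1, and 51.4% and 29.0% in cluster 3. In cluster 15 it was 23.7% (16.2 to 32.6) at 6 months and 16.6% (13.8 to 19.7) at 3 months, and the PSMB8 share was 23.3% and 22.4%, with overlapping intervals for both. The unnamed stem-type cluster 2 was at 52.9% at 6 months and 36.4% at 3 months. Another inducible subunit, PSMB10, made up 57.7% of PSMB10 and PSMB7 UMIs at 6 months and 47.5% at 3 months in stem or folliculostellate-like cells. In lactotroph-like cells the PSMB10 share was 60.1% at 6 months and 60.5% at 3 months, above that of stem or folliculostellate-like cells in both libraries.

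**Figure D5:**
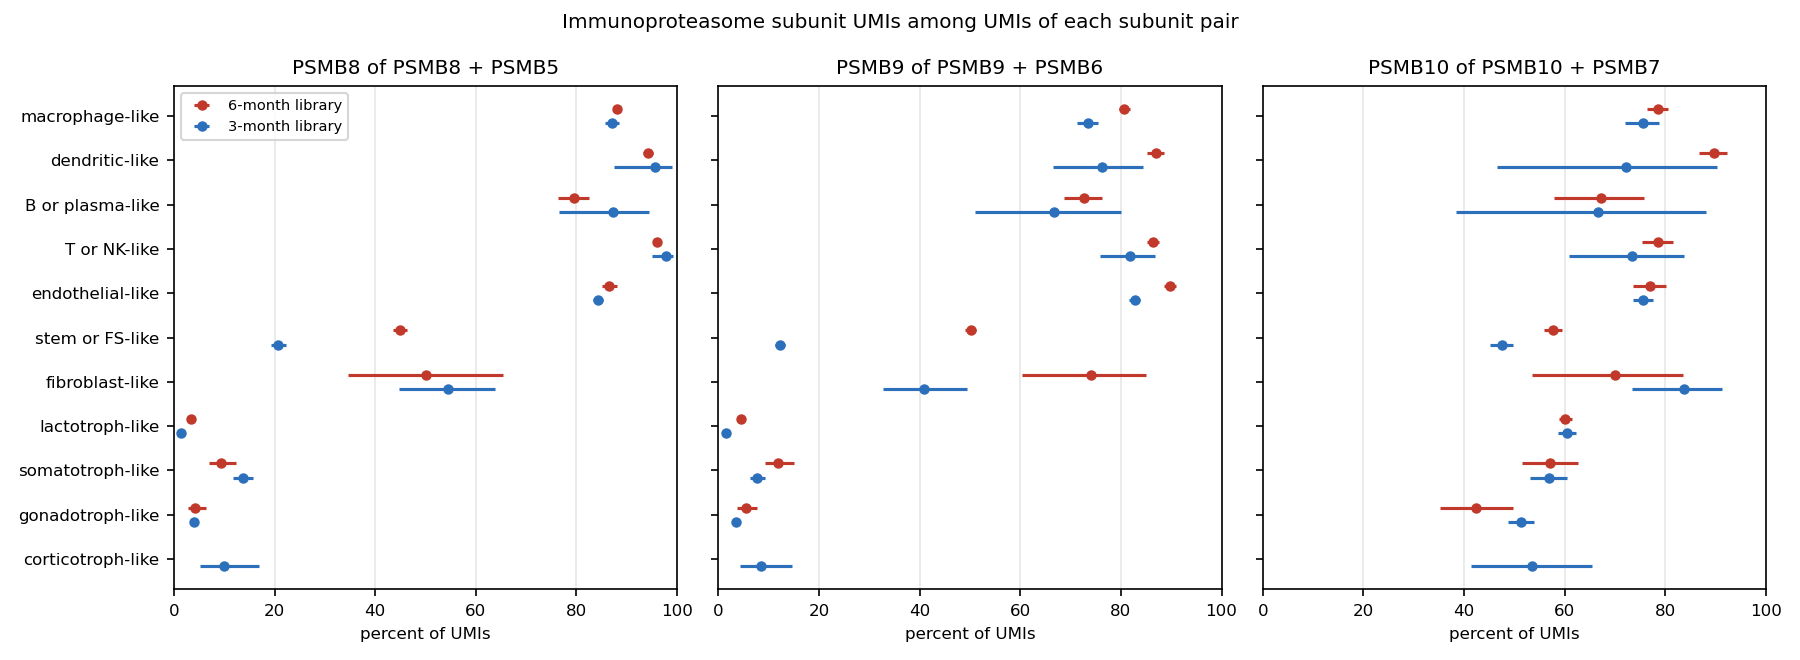
Share of UMIs (percent, horizontal axis) that the inducible subunit holds in each of 3 proteasome subunit pairs, by cell class, with the 6-month library in red above the 3-month library in blue and bars for exact 95% intervals; FS stands for folliculostellate and classes with under 10 cells are left out. For PSMB9, stem or folliculostellate-like cells lie at 50.2% and 12.3%, while lactotroph-like cells lie under 5% in both libraries.

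B2M needs a reservation. The row with the symbol B2M carries a gene identifier that the reference table calls LOC443295. The reference's own B2M is the neighbouring gene, which the files list as LOC114108604. Over all barcodes LOC114108604 had 451325 UMIs at 6 months and 405670 at 3 months, against 275115 and 197552 for the B2M row, and how reads were divided between these genes is not known, so B2M levels are uncertain. The B2M row held a larger part of the UMIs of both genes at 6 months in every named class, for example 36.8% at 6 months and 29.6% at 3 months in endothelial-like cells. LOC114108604 had log2 ratios of 1.33 in stem or folliculostellate-like, 0.24 in endothelial-like and -0.61 in somatotroph-like cells. Summed over both genes, the log2 ratio was 1.42 in stem or folliculostellate-like cells and 0.39 in endothelial-like cells, so the stem-cell difference is present in either row and in the sum.

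Further genes of the pathways were counted in the same way. Of 14 further class I genes, such as chaperones and peptidases, 1 of 14 measured was at least 2-fold higher in stem or folliculostellate-like cells and 1 of 13 in endothelial-like and in macrophage-like cells. In each of these classes that gene was IRF1, an interferon-induced activator of class I genes, with log2 ratios of 3.50, 2.33 and 2.47. Lactotroph-like cells also had 1 of 14 higher, at a log2 ratio of 2.71. T or NK-like cells had 1 of 11 at 1.70, and somatotroph-like cells 1 of 12 at 1.38. In gonadotroph-like cells 0 of 13 were higher and 1 was lower. IRF1 had 477 CPM at 6 months, against 42.1 CPM at 3 months in stem or folliculostellate-like cells. Of the constitutive subunits PSMB5, PSMB6 and PSMB7, 0 of 3 were 2-fold apart in stem or folliculostellate-like cells. In T or NK-like cells 1 of 3 was higher, namely PSMB5 with 162 UMIs at 6 months and 5 UMIs at 3 months (log2 1.93). The PSMB8 share of its pair was 95.9% at 6 months and 97.8% at 3 months there. Of 16 further class II genes, 11 were measured in endothelial-like cells, and 1 was at least 2-fold higher there. This was IRF8, a factor of myeloid and B cells, with 186 CPM at 6 months, against 9.74 CPM at 3 months (log2 4.25). In other classes 2 of 14 were higher in stem or folliculostellate-like, 2 of 5 in T or NK-like and 1 of 12 in lactotroph-like cells. At least 2-fold lower were 1 of 15 in macrophage-like, 1 of 12 in lactotroph-like and 1 of 9 in gonadotroph-like cells. In somatotroph-like cells 0 of 10 were 2-fold apart. Of 7 costimulation genes, 2 of 2 measured were higher in endothelial-like cells, namely CD40, a receptor for T cell help, at 1.80 and CD274, which encodes PD-L1, at 2.66. In stem or folliculostellate-like cells 3 of 4 were higher, namely CD40 at 1.42, CD83 at 1.61 and CD274 at 2.33. In macrophage-like cells 2 of 7 were higher, among them CD40 at 1.73, and 1 was lower, CD83 at -1.67. T or NK-like cells had 1 of 3 higher. The count was 0 of 3 in lactotroph-like cells and 0 of 1 in somatotroph-like and in gonadotroph-like cells. Of 9 genes of interferon gamma signalling, among them IRF1, 4 of 8 measured were at least 2-fold higher in macrophage-like cells and 2 of 8 each in endothelial-like, stem or folliculostellate-like and lactotroph-like cells. The count was 1 of 7 in T or NK-like and in somatotroph-like cells, while in gonadotroph-like cells 0 of 8 were higher and 2 of 8 were lower. The shares over all genes given above for each class and direction are the background of these counts.

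Across 18 combinations of a class and a library, the genes most like each of 5 members were looked up among 12596 genes by the correlation of log2(CPM + 1). These points share libraries and depth, and the coefficients are descriptive. CD74 was most like LOC101109747 (r = 0.99) and DQA (r = 0.99), and CIITA most like OVAR-DRB1 (r = 0.98). TAP1 was most like PSMB9 (r = 0.98), with LOC114109630 next (r = 0.98) and PSMB8 after it (r = 0.97). In the reference, TAP2, PSMB8, TAP1 and PSMB9 stand next to each other in this order. B2M was most like LOC114108604 (r = 0.98), and NLRC5 was closer to B2M (r = 0.92) than to CD74 (r = 0.78).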

How the data were processed

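Anterior pituitary cells of Hu sheep were profiled with the Chromium droplet system and nanoball sequencing, with 1 library per age. The deposited matrices hold whole UMI counts for each gene in each barcode. The submitters' processing notes name Cell Ranger 5.0.0, and the matrix headers name 5.0.1. No source used here names the genome build. Gene names and neighbours came from RefSeq's ARS-UI_Ramb_v3.0 table, with no coordinates used. The 6-month library held 15031 barcodes and 175239612 UMIs, and the 3-month library 18961 barcodes and 142479651 UMIs.

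Barcodes needed 500 genes and 1000 UMIs to stay, and Scrublet doublets (4.30% at 6 months and 5.63% at 3 months) were removed. In scanpy 1.11.5, 3000 variable genes without hormone, ribosomal and annotated presentation genes gave 30 components, 15 neighbours and Leiden clusters at resolution 1. This made 39 clusters, of which 9 stayed unnamed. A class name needed at least 3 markers at least 1.5-fold higher and present in at least 10% of cells, and no other class with more markers. It also needed a mean log2 difference of those markers of at least 0.7. No other class could have more markers among the 10 leading genes of the cluster. Clusters of far lower depth than their libraries, with no marker among the leading genes, stayed unnamed. Cluster 2 had 7 stem markers, but RAX, a pituicyte marker, was among its leading genes. Counts were summed per class and scaled with edgeR 4.0.16 TMM factors for each class. Values per cluster and ruler are CPM on UMI totals without these factors. Shares have Clopper-Pearson, levels Poisson and ratios conditional binomial intervals. UMIs of 1 cell are not independent, so intervals cover counting error only. Free RNA was scaled with hormone genes in classes without hormones and with immune and endothelial genes in hormone-producing classes. The members were to be named in the measured classes, and genes of other lists where at least 2-fold apart; the text gives a selection of the listed genes. The members, lists and comparisons were chosen with earlier results of these data known. Alternatives covered scaling, cell filters, doublets, resolution, genes for clustering, free RNA, immune RNA, the count minimum and 4 choices of clusters added after the data were seen. The interval code was tested on simulated data.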

Additional observations from a re-analysis of the deposited data

Results flagged for a closer look

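Barcodes under the cell filter took no part in the comparisons above and still carried the invariant chain message. CD74 had 2443 CPM in 1778 such barcodes of the 6-month library and 738 CPM in 2593 such barcodes of the 3-month library, with medians of 693.5 and 714 UMIs. The kept cells as a whole had 654 CPM at 6 months, against 364 CPM at 3 months. C1QB, a macrophage gene, had 1713 CPM at 6 months, against 630 CPM at 3 months, in the same left-out barcodes. Cluster 34, which stayed unnamed, held 45 cells at 6 months and 3 at 3 months and had 6395 CPM of CD74 at 6 months. It was led by genes such as SPIB and LAMP3, had 5 B or plasma markers and 3 dendritic markers, and had 4766 CPM of LOC101109747 (DRA) and 318 CPM of TAP1.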

How the results depend on the processing

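Over 16 alternatives the number of pairs at least 2-fold higher at 6 months ranged from 14 to 21, against 18 as reported. The number at least 2-fold lower was 0 in 15 of them and 1 with free RNA subtracted, where PSMB8 in somatotroph-like cells had a log2 ratio of -2.10. All 18 reported pairs kept their sign under every alternative that measured them, and 10 stayed at least 2-fold in all that measured them. Of these 10, endothelial-like NLRC5 was measured in 12 alternatives, and not without cluster 28, which held 54 of its 61 UMIs at 6 months. Lactotroph-like and gonadotroph-like CD74 were measured in 15. The alternative that did not measure them subtracted free RNA, which left both under 100 summed UMIs. For these pairs a 2-fold difference beyond free RNA was thus not shown. Endothelial-like CD74 ranged from 1.56 to 7.09 and TAP1 from 0.01 to 1.35, both lowest without cluster 28, while PSMB9 turned to -0.24 there and to -0.26 in clusters with at least 50 cells in each library. Stem or folliculostellate-like CD74 ranged from 1.37 with the looser cell filter to 4.60 with free RNA subtracted, and B2M from 0.87 to 1.76; the cause was not tested. T or NK-like PSMB8 ranged from 0.56 to 1.25. CIITA rested on few UMIs outside macrophage-like and dendritic-like cells, at 6 months 37 in endothelial-like and 74 in stem or folliculostellate-like cells. No paired analysis was possible because each age has 1 library, and for the same reason no library could be left out.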
